A study of Rattus norvegicus with 2 samples.

Results

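The data described here are the rows for miR-221 and miR-222 in a small RNA count table from exosomes, the small vesicles that cells release. Every row whose name was mmu-miR-221 or mmu-miR-222, with any arm, was taken, and 2 of the 635 listed rows met this rule. They were mmu-miR-221-3p and mmu-miR-222-3p. The exosomes came from the culture medium of primary heart muscle cells, prepared from neonatal Wistar rats of 1 to 2 days and enriched by differential adhesion in medium with 5-bromo-2-deoxyuridine, so the cultures were enriched for cardiomyocytes and not pure. All cells had been starved of serum. Normal cardiomyocytes were then kept for 48 h without angiotensin II (Ang II) and gave NC-Exo, and hypertrophic cardiomyocytes were kept for 48 h with 1 μmol/L Ang II and gave HC-Exo. Vesicles were collected with a commercial exosome isolation reagent. Each condition is represented by 1 library. The differences given here therefore have no replicate check, and each test compares the 2 libraries and not the conditions.

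A miRNA gene is transcribed into a hairpin, from which Drosha and Dicer cut a duplex of a 5p and a 3p arm. The arm kept by Argonaute guides it to mRNAs, mainly through the seed, bases 2 to 8 of the mature miRNA. The genes of miR-221 and miR-222 lie side by side and are known to be transcribed together. Their 3p arms are known to repress Cdkn1b, the cell cycle inhibitor p27, and Kit, a receptor tyrosine kinase. In vessels, they are known to promote proliferation of smooth muscle cells and to restrain endothelial cells, and miR-222 is known to rise in the heart with exercise.

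The rat sequences of both 3p arms are shown because they carry all the reads counted for this cluster. They are from RefSeq on the rat build GRCr8, 5′ to 3′, with the seed in capitals.
miR-221-3p: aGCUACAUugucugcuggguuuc
miR-222-3p: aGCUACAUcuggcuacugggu

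The 2 seeds were identical, GCUACAU. No other mature miRNA of the RefSeq rat table carried this seed. The first 8 bases were shared. Beyond them the sequences diverged from U9C onward, where the base of miR-221-3p is written first and positions count from 1 at the 5′ end. Compared without gaps from the 5′ end, 10 of 21 bases differed. A further run of 6 bases, CUGGGU, lay at bases 15 to 20 of miR-221-3p and at bases 16 to 21 of miR-222-3p. Over the first 18 bases, the closest of the 692 other mature rat miRNAs differed from miR-221-3p at 7 bases, and the same number was found for miR-222-3p. The RefSeq rat table holds only 312 of the 635 names in the counts. The other listed miRNAs were compared neither for the seed nor for closeness.

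The hairpins are shown to place the arms, with the 5p arm and then the 3p arm in capitals. In RefSeq, rno-mir-222 lies at chrX:6022621-6022723 and rno-mir-221 at chrX:6023182-6023290, both on the plus strand of GRCr8, with 458 bases between them. This is not the build of the counts, since the submitters' processing notes name the mouse builds mm9 and GRCm38.
rno-mir-221: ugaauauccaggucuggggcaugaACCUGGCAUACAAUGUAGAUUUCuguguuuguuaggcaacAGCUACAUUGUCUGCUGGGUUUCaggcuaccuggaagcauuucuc
rno-mir-222: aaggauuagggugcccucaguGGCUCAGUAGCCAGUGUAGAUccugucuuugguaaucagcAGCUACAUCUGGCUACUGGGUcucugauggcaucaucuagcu

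The counts of the listed rows came to 102608 miRNA reads (NC-Exo) and 133155 miRNA reads (HC-Exo). Some rows had equal counts in both libraries. For example, miR-669a-3p had 274 reads (NC-Exo) and 248 reads (HC-Exo), and miR-669o-3p had the same. Whether such rows hold the same reads was not tested. The totals, and the shares over all tested miRNAs given below, may therefore count some reads more than once. Levels are given as reads per 1000000 miRNA reads (RPM), so each read of NC-Exo was worth 9.75 RPM and each read of HC-Exo 7.51 RPM. All intervals are 95% exact intervals of counting error, and without molecular identifiers they do not cover PCR copies of 1 molecule. The muscle miRNAs listed as markers, among them miR-1a-3p, were all detected, and their share of the reads was 16.9% (NC-Exo) and 18.4% (HC-Exo). Most of this share was miR-1a-3p alone, with 16614 and 23271 reads. Of the other muscle markers, miR-133a-3p had the most reads, 417 and 694, and miR-208a-3p the fewest, 9 and 24. The endothelial markers miR-126a-3p and miR-126a-5p together took 9.11% and 6.68%. The smooth muscle and fibroblast markers took 3.66% and 3.68%. These near-equal shares join markers that differed in opposite directions. Only miR-214-3p was lower in HC-Exo, with 13332 RPM (NC-Exo) and 9463 RPM (HC-Exo). The most abundant, miR-143-3p, had 15554 RPM (NC-Exo) and 19308 RPM (HC-Exo). Of 8 blood cell markers, 7 were listed, at 1.43% and 1.51%, although miR-486a-5p and miR-486b-5p had equal counts. Which cells the miR-221 and miR-222 reads came from was not tested.

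Both miRNAs were of moderate abundance. For mmu-miR-221-3p, NC-Exo gave 50 reads and HC-Exo gave 53. This is 487 RPM in NC-Exo (interval 362 to 642) and 398 RPM in HC-Exo (298 to 521). The reads were nearly equal in number, so that the deeper library had the lower level, and the intervals overlapped. For mmu-miR-222-3p, NC-Exo gave 80 reads and HC-Exo gave 127. This is 780 RPM in NC-Exo (618 to 970) and 954 RPM in HC-Exo (795 to 1135). Here HC-Exo had the higher level, again with overlapping intervals.

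By its reads, miR-222-3p ranked 96 of the 635 listed miRNAs in NC-Exo and 93 in HC-Exo. Its partner miR-221-3p ranked 126 (NC-Exo) and 140 (HC-Exo). In NC-Exo, miR-221-3p stood 1 read below miR-212-3p and 1 above miR-320-3p, with miR-125a-3p, miR-28a-5p, miR-28c and miR-3102-3p at the same 50 reads. In HC-Exo it stood 1 read below miR-376c-3p and 1 above miR-296-5p and miR-345-3p, and had the same 53 reads as miR-26a-5p, miR-26b-5p and miR-326-3p. The neighbours of miR-222-3p in NC-Exo were miR-139-5p and miR-150-5p above, with 83 reads each, miR-329-3p with the same 80 reads, and miR-450b-3p below with 76. In HC-Exo they were miR-148a-3p and miR-574-5p with 128 reads each and miR-106a-5p with 126. None of these neighbours differed from the member beside it by more than 4 reads, which is within the counting error.

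**Figure D1:**
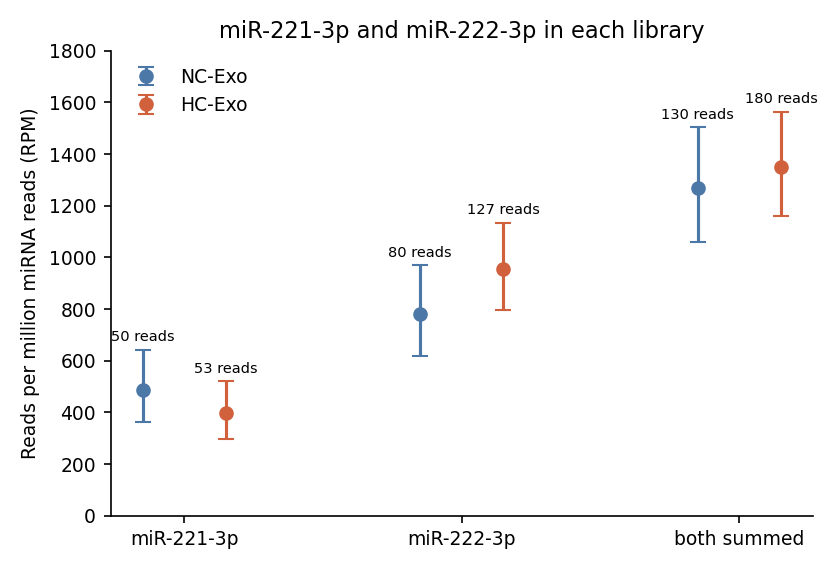
Levels of miR-221-3p, miR-222-3p and their sum in RPM (vertical axis) in NC-Exo and HC-Exo, 1 library each, with the reads above each point. Bars are 95% exact intervals of counting error, and the intervals of NC-Exo and HC-Exo overlap for each miRNA and for the sum.

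For each miRNA, the HC-Exo library was compared with the NC-Exo library by a two-sided exact binomial test of its reads. Benjamini-Hochberg adjustment was made over the 340 miRNAs whose reads in NC-Exo and HC-Exo came to 10 or more. Neither member passed an adjusted p-value of 0.05 in this test. Ratios are those of the RPM in HC-Exo to the RPM in NC-Exo. For miR-221-3p the log2 ratio was -0.29, with an interval of -0.88 to 0.30 (exact binomial test, adjusted p = 0.540). As a ratio of levels this is 0.817 (0.544 to 1.23). For miR-222-3p the log2 ratio was 0.29, with an interval of -0.12 to 0.71 (exact binomial test, adjusted p = 0.337). Its ratio of levels was 1.22 (0.918 to 1.64). The point values therefore lay on opposite sides of 0 and were close to equal in size, and each interval included 0.

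Over all tested miRNAs, 13.8% were higher and 8.53% were lower in HC-Exo at an adjusted p-value under 0.05, and in 15.6% the log2 ratio reached 1 in size. At this limit on the adjusted p-value, 47 were higher and 29 lower, and 24 and 38 under upper-quartile scaling, where the log2 ratios of the members were -0.42 and 0.17. Large log2 ratios were mostly those of miRNAs with few reads. Of 192 miRNAs that had 50 or more reads in all, the members among them, 7 reached a log2 ratio of 1 in size, or 3.65%. Of the 2 members, 0 met any of these limits, and their unadjusted p-values were 0.321 for miR-221-3p and 0.162 for miR-222-3p (exact binomial test). With scaling by the library totals, the intervals exclude a 2-fold change in either direction as far as counting error goes, for both. Under upper-quartile scaling, every log2 ratio shifts by -0.12. A 2-fold fall of miR-221-3p then lay at the edge of its interval and was not excluded. With 103 reads over both libraries, as miR-221-3p had, the smallest ratios that would have passed the adjusted limit were 1.79 and 0.598. With 207 reads, as miR-222-3p had, they were 1.48 and 0.693. Differences smaller than these were not detectable at this depth.

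The size of the members' log2 ratios was below the middle of the table. A larger log2 ratio in size was seen in 214 of the 340 tested miRNAs for miR-221-3p and in 215 for miR-222-3p. The median size over all tested miRNAs was 0.41. Among the 91 miRNAs with reads between 1/2 and 2 times those of miR-221-3p it was 0.42, and among the 62 with reads between 1/2 and 2 times those of miR-222-3p it was 0.28. In direction, the median log2 ratio of all tested miRNAs was 0.10, so miR-221-3p lay below it and miR-222-3p above it.

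**Figure D2:**
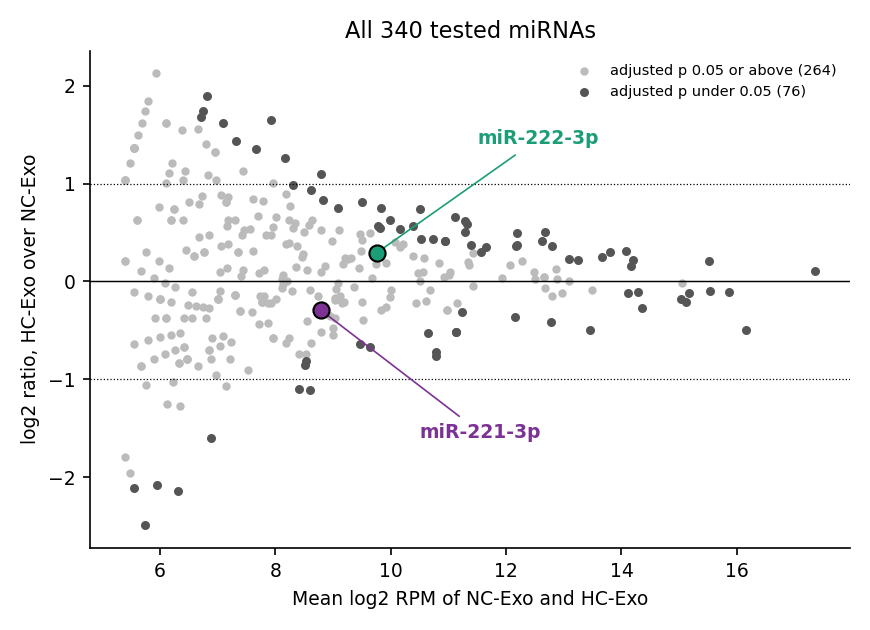
The log2 HC-Exo/NC-Exo ratio (vertical axis) against the mean log2 RPM of both libraries (horizontal axis) for the 340 tested miRNAs, with libraries of 3 reads or fewer set at 3 reads and dotted lines at 1 and -1. Dark points have an adjusted p-value under 0.05, and miR-221-3p and miR-222-3p lie inside the cloud of the pale points at -0.29 and 0.29.

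The cluster as 1 unit was then considered. The members together had 130 reads in the NC-Exo library and 180 in that of HC-Exo. This is 1267 RPM (1059 to 1504) and 1352 RPM (1162 to 1564). The log2 ratio of the sum was 0.09, with an interval of -0.24 to 0.43 (exact binomial test, p = 0.606, not adjusted). Its sign depended on the scaling of the libraries, with -0.03 under upper-quartile scaling, so no direction is given for the cluster.

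The balance between the members was compared within and between the libraries. In NC-Exo, miR-222-3p had 1.60 reads for each read of miR-221-3p, and 61.5% of the cluster's reads (52.6 to 69.9%). In HC-Exo it had 2.40 reads for each read of miR-221-3p, and 70.6% of the reads (63.3 to 77.1%). The interval lay above 50% in both libraries, so miR-222-3p was the more abundant member by reads in each. A read is a whole mature miRNA, so no correction for length was made, and these are shares of reads and not of molecules. Between the libraries, the log2 ratio of miR-221-3p was lower than that of miR-222-3p by a difference of -0.58, with an interval of -1.31 to 0.15 (Fisher's exact test, p = 0.112, 1 comparison). This difference does not depend on the scaling of the libraries. A shift in the balance was not detectable at this depth, and the interval allows differences from more than a halving of miR-221-3p against miR-222-3p to a small rise.

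For scale, the same difference was taken for other miRNA genes of the rat RefSeq gene list whose more abundant arm had at least 100 reads. Each such gene was paired with the next one on its chromosome, on either strand, where their starts lay at most 25 kb apart, so genes of a larger cluster were not all paired with each other. There were 31 such pairs, miR-221-3p and miR-222-3p among them, and a miRNA made by several genes was counted with each. The difference in log2 ratio within a pair ranged in size from 0.01 to 1.30, with a median of 0.26. With 0.58, the pair of miR-221-3p and miR-222-3p stood at place 7 of 31. The pair above it was let-7f-5p and miR-98-5p with a difference of 0.65 in size, and the pair below it was let-7e-5p and miR-99b-5p with 0.49. Log2 ratios of opposite sign were found in 9 pairs, this one included. Because low reads widen such differences, the 12 pairs whose less abundant miRNA had at most 210 reads were also ordered by themselves, a limit chosen after the values were seen, and there the pair stood at place 3. With every pair of genes within 25 kb taken, also an order chosen after the values were seen, there were 56 pairs with a median of 0.27, and the pair stood at place 12.

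**Figure D3:**
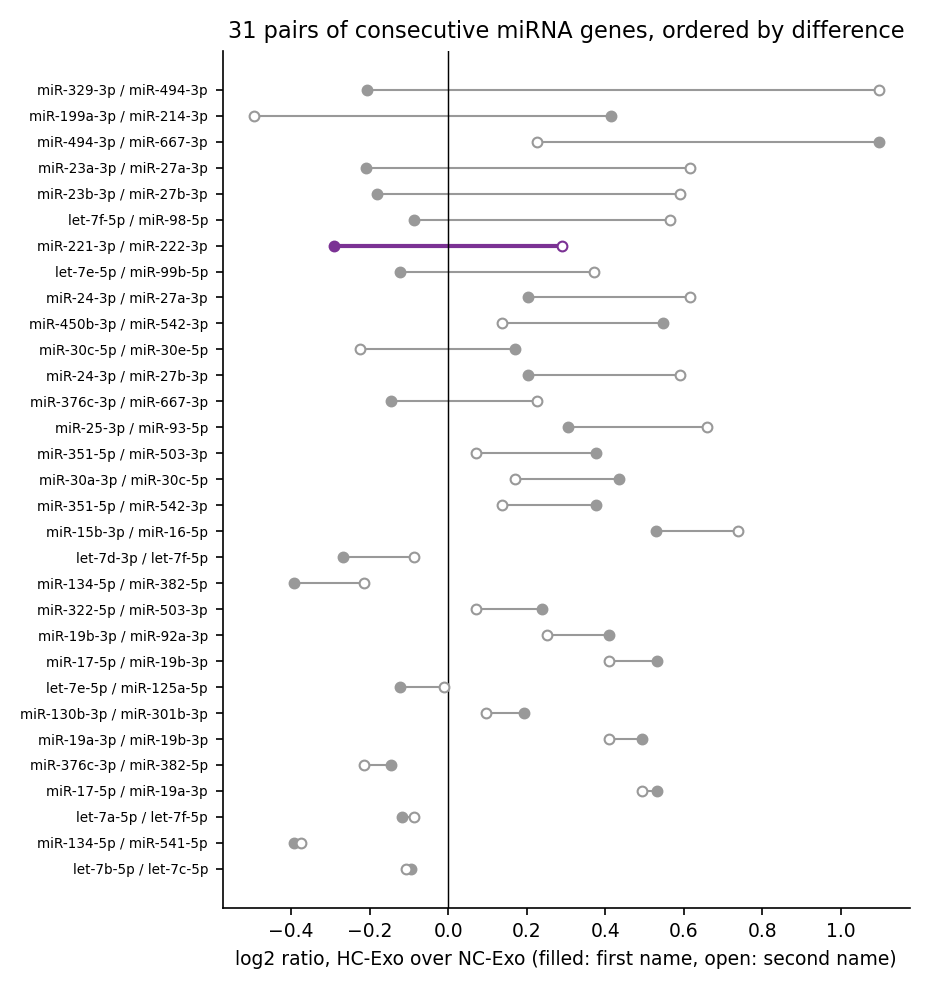
The log2 HC-Exo/NC-Exo ratio (horizontal axis) of both members of 31 pairs of consecutive miRNA genes, 1 line each, ordered from the largest difference at the top. The filled point is the miRNA named first, and the pair of miR-221-3p and miR-222-3p, drawn in purple, stands at place 7 and spans 0.

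The 5p arms of both hairpins, miR-221-5p and miR-222-5p, were not listed in the count table. No listed row is empty in both libraries, so a missing row sets no limit on their level. Among all 104 miRNAs whose more abundant arm came to 100 reads or more, the other arm was listed for 82. Among the 33 with 100 to 210 reads, the range that holds both members, it was listed for 22. The other 11 were miR-221 and miR-222 themselves and miR-106a, miR-128, miR-148a, miR-183, miR-185, miR-301b, miR-494, miR-541 and miR-667. Where both arms were listed, the less abundant arm had a median of 3.51% of the reads.

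The miRNAs with levels most like each member were found by the distance of log2 RPM over the 2 libraries, which only places them and is no measure of shared control. For miR-221-3p, the nearest was miR-125a-3p at a distance of 0.05, with 50 (NC-Exo) and 55 (HC-Exo) reads. The next were miR-376c-3p with 46 and 54 reads and miR-877-5p with 54 and 49. For miR-222-3p, the nearest was miR-139-5p at a distance of 0.08, with 83 and 122 reads. It was followed by miR-450b-3p with 76 and 144 reads and by miR-98-5p, a let-7 family member, with 74 and 142. The members differed from each other in level by far more than from these miRNAs, so the nearest miRNAs of one could not be those of the other.

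Because miR-221 and miR-222 are best known from vessels, both were set beside the miRNAs of an endothelial list and a smooth muscle list. A place in a list does not mean that a miRNA is confined to those cells. Which cells its reads came from was not tested. In NC-Exo, miR-126a-5p, an arm of the endothelial miR-126, had 8875 reads, 111 times the level of miR-222-3p. In HC-Exo it had 8185 reads, 64.4 times the level of miR-222-3p. Its log2 ratio was -0.49 (exact binomial test, adjusted p = 1.81e-107). The other arm, miR-126a-3p, was at 474 and 712 reads, which is a log2 ratio of 0.21 (exact binomial test, adjusted p = 0.0572). Of the 14 miRNAs of the endothelial list, all were tested, 5 were higher and 3 lower in HC-Exo, against 3 and 3 under upper-quartile scaling. The shares over all tested miRNAs were 13.8% and 8.53%, or 24 and 38 of 340 under upper-quartile scaling. The median log2 ratio of this list was 0.15, beside 0.10 over all tested miRNAs. The 3 lower ones were miR-126a-5p, miR-23a-3p and miR-23b-3p, and the 5 higher ones were miR-92a-3p, miR-24-3p, miR-27a-3p, miR-27b-3p and miR-17-5p.

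Of the smooth muscle list, 8 of 10 miRNAs were tested, 3 were higher and 0 lower in HC-Exo, against 1 and 0 under upper-quartile scaling, beside the same shares over all tested miRNAs, 13.8% and 8.53%. With so few miRNAs in either list, nothing is read from these counts about the lists. The median log2 ratio was 0.21. The 3 higher ones were miR-143-3p, miR-21a-5p and miR-145a-3p, the other arm of miR-145a-5p. With 35 (NC-Exo) and 81 (HC-Exo) reads, miR-145a-3p had a log2 ratio of 0.83. It did not stay past the limit under upper-quartile scaling. The miRNA that stayed past the limit under each scaling was miR-143-3p, which is enriched in smooth muscle, from 1596 to 2571 reads, a log2 ratio of 0.31 (exact binomial test, adjusted p = 6.28e-10). Its neighbour miR-145a-5p was at 768 and 1011 reads, which is a log2 ratio of 0.02 (exact binomial test, adjusted p = 0.891). With 1784 and 2588 reads, miR-21a-5p, abundant in fibroblasts, had a log2 ratio of 0.16 (exact binomial test, adjusted p = 0.00300). In log2 ratio, miR-222-3p was close to miR-143-3p, but with 207 reads its interval was wider and included 0. The log2 ratio of miR-221-3p was below that of all 8 tested miRNAs of the smooth muscle list, of which the lowest was 0.02. The interval of miR-221-3p, -0.88 to 0.30, included that value, so the counts do not settle this order.

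**Figure D4:**
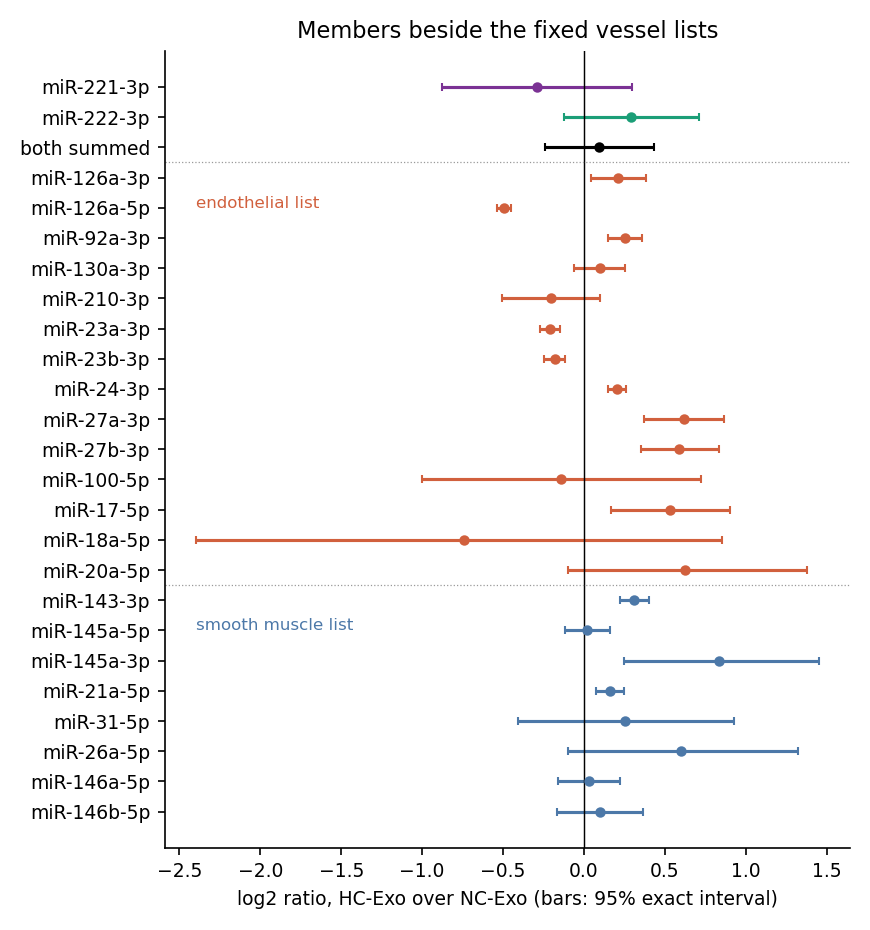
The log2 HC-Exo/NC-Exo ratio (horizontal axis) with its 95% exact interval for miR-221-3p, miR-222-3p, their sum and the tested miRNAs of the endothelial and smooth muscle lists. The intervals of miR-221-3p, miR-222-3p and the sum include 0. Among more abundant miRNAs, those of miR-126a-5p and miR-143-3p do not, whereas those of miR-145a-5p and miR-130a-3p do.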

How the data were processed

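Raw counts on each mature miRNA name, deposited by the authors without normalization, entered all tests. The authors also deposited normalized values, a signal of 12.1 per counted read for NC-Exo and 9.23 for HC-Exo, which served as 1 alternative. Their table of the comparison (fold changes, p-values and calls) was not used. Library kits and sequencer were Illumina. The processing notes name Bowtie2 and mouse builds, and trimming, counter and miRNA reference are not given in the sources used here. The rows are named as mouse miRNAs, whereas the cells were from rats. RPM was the count divided by the library total (102608 and 133155). The study's t-test needs replicates and could not be run, so the exact binomial test of the raw reads was used. The floor of 3 reads was applied to the log2 ratios and not to the test. The test was also run on simulated counts with counting error only, which cannot show how it behaves with spread between libraries. Named miRNAs were the members, 3 nearest by level, rank neighbours and those of 2 vessel lists. The members and lists were chosen with earlier results of these data known. RefSeq (GRCr8) holds 312 of the 635 names. Alternatives were scalings, pseudocounts, read filters and edgeR's exact test with an assumed spread (edgeR 4.0.16, DESeq2 1.42.0, R 4.3.3, Python 3.11.15, scipy 1.17.1).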

Additional observations from a re-analysis of the deposited data

How the results depend on the processing

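No paired analysis was possible because each condition has only 1 library, which also leaves no replicate to drop. Under 13 alternatives each, the log2 ratio of miR-221-3p stayed between -0.42 and -0.29 and that of miR-222-3p between 0.17 and 0.29, none past the threshold (lowest adjusted p 0.359 and 0.267, exact binomial test). With edgeR's exact test and an assumed coefficient of variation of 0.1, their adjusted p-values were 0.758 and 0.688. The difference between them was -0.56 with a pseudocount of 5 reads. Not every alternative could change every value. By design, pseudocounts left the p-values unchanged and read filters left the log2 ratios unchanged. The size of the assumed spread left edgeR's log2 ratio unchanged. The summed log2 ratio of 0.09 turned to -0.030 under upper-quartile scaling, to -0.0048 under scaling by the median log2 ratio and to -0.0032 with totals that leave out the 10 most abundant miRNAs, since these shift every log2 ratio by -0.12, -0.10 and -0.10. Upper-quartile scaling gave 24 miRNAs higher and 38 lower in HC-Exo, against 47 and 29. With at least 50 reads over both libraries, 7 of 192 miRNAs reached a log2 ratio of 1 in size, against 53 of 340, since most of the 53 have fewer reads than that.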
